A study of Mus musculus with 12 samples.

Results

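Otud1 and Ppp1r10 are 2 of the 21967 gene symbols in a table of gene expression from mouse brain slice cultures, taken here by symbol. They were chosen by measured values of these same data, the difference between genotypes in how their level changed with treatment. Their levels over the groups are therefore given as a description, with no test. Tests are given only for other genes. Otud1 encodes a deubiquitinase of the ovarian tumour (OTU) family, enzymes that take ubiquitin off their substrates. Ppp1r10 encodes PNUTS, a nuclear subunit that holds protein phosphatase 1 (PP1) in complexes on chromatin. In neurons, strong firing switches on immediate early genes within minutes, and changes in transcription, mRNA processing and protein turnover follow.

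Organotypic slices were cut from pups at postnatal day 6 and grown for 8 days in vitro. All slices carried floxed Mef2c alleles, those of the control genotype too. There were 4 groups of 3 libraries. One genotype was labelled CaMKiiα Cre +/-; Mef2c fl/fl, and its slices received 100 µM picrotoxin with 100 µM 4-aminopyridine or vehicle (1% DMSO and 1% water). The other was labelled Mef2c fl/fl, without Cre, and its slices received the same treatment or vehicle. Picrotoxin takes away GABA-A inhibition and 4-aminopyridine closes potassium channels that end the action potential, so together they drive firing. The CaMKIIα promoter drives Cre mainly in forebrain excitatory neurons, so other cells of a slice keep their floxed alleles. The length of the treatment is not given in the sources used here.

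Polyadenylated RNA was read as pairs of 150 bp. The libraries held 82235674 to 140390406 counted reads, and levels are in CPM, a gene's counted reads scaled to the library total. The genotype labels were first checked with Mef2c. It stood at 2220, 1944 and 2304 CPM in treated and at 2143, 2209 and 2449 CPM in vehicle slices labelled Cre, against 974, 1225 and 1041 CPM in treated and 883, 1129 and 995 CPM in vehicle slices without Cre. Mef2c was thus higher in the libraries labelled Cre, with a log2 difference of 1.00 (SE 0.11, limma adjusted p = 9.77e-05) in treated and 1.18 (SE 0.11, limma adjusted p = 2.64e-05) in vehicle slices. The two-sided exact permutation test gave p = 0.1 for each, the smallest value that 3 libraries against 3 allow. At the level of whole-gene reads this goes against the label of a conditional knockout. Reads over the floxed part of Mef2c alone were not available. Every difference between genotypes below therefore refers to the libraries as labelled, and its sign depends on those labels. No marker of the 6 cell types checked was at 0 in any library. The lowest oligodendrocyte lineage marker averaged only 0.0504 CPM and the lowest endothelial marker 0.715 CPM, both below the mean of 1 CPM needed for testing. Excitatory neuron markers summed to 4702 to 5532 CPM in treated and 4983 to 5658 CPM in vehicle slices labelled Cre, against 4330 to 5081 CPM in treated and 4739 to 5123 CPM in vehicle slices without Cre. By limma at an adjusted p under 0.05, 3 of the 6 excitatory markers were higher with the Cre label in vehicle slices. In treated slices 2 were higher, and none was lower in either. Of all genes, 9.18% and 7.5% were higher. The marker medians were 0.40 and 0.17 on the log2 scale. Their difference between genotypes in treatment change had a median of -0.40 (range -1.18 to 0.07), and none passed. The part of this in the values of Otud1 and Ppp1r10 was not tested. In such bulk samples, fewer cells of a type and less RNA per cell cannot be told apart.

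Otud1 lies on chromosome 2 of GRCm38, from 19657752 to 19660583 on the plus strand, and GENCODE M21 gives it 1 transcript of 1 exon with no other gene overlapping it. The 250 bases before its RefSeq transcript start are shown, because Otud1 differed between treated and vehicle slices and this window is where sites of activity-regulated factors could be looked for. They span chr2:19657481-19657730 (GRCm38.p6, plus strand, RefSeq), and capitals mark the motif matches.
Otud1 upstream: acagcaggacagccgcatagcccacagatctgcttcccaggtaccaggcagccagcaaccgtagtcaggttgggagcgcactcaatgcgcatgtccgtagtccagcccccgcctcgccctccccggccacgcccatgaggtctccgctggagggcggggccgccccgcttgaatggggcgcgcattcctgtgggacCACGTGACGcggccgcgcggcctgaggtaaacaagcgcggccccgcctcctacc
Both strands were searched for 5 short motifs. The E-box CACGTG begins 54 bases before the start and runs into the cAMP response element half-site TGACG, which begins 50 bases before it. CACGTG is found in 6.02% and TGACG in 17.8% of 32851 such windows of the mouse genome. The full cAMP response element TGACGTCA, the AP-1 motif TGANTCA and a MEF2 core motif, found in 1.55%, 6.75% and 3.2% of those windows, have no match in these letters. A match is a run of letters and does not show that a factor binds there. Of these bases, 69.2% are G or C.

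Otud1 was highest in treated slices without Cre. With the Cre label, treated slices held 14.3, 14.4 and 14.2 CPM, against 11.9, 12.3 and 11.4 CPM in vehicle slices. Without Cre it stood at 34.6, 35.5 and 27.3 CPM in treated and at 11.9, 12.5 and 12.6 CPM in vehicle slices. The 3 treated libraries without Cre lie above all the other libraries, and the 3 treated libraries labelled Cre lie above all vehicle libraries. The vehicle libraries of both genotypes overlap.

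The means of Otud1, in order, were 32.5 ± 4.53 CPM in treated slices without Cre, 14.3 ± 0.0847 CPM in treated slices labelled Cre, 12.4 ± 0.374 CPM in vehicle slices without Cre and 11.9 ± 0.475 CPM in vehicle slices labelled Cre (SD, n = 3 each). The last 2 of these do not differ beyond their spread. The values rest on 981 to 4085 reads per library. The spread among treated slices without Cre was the widest, with a coefficient of variation of 13.9%, and replicate 3 is the lowest of them. The treated slices labelled Cre varied least, by 0.593%, at 1446 to 1699 reads. Counting noise alone is wider than this at such read numbers, so nothing is read from the narrow spread.

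On the log2(CPM + 1) scale, treated minus vehicle was 0.25 for Otud1 in slices labelled Cre and 1.32 in slices without Cre (SE 0.09 each). In CPM the treated mean was 20.4% above vehicle with the Cre label and 163% above it without. The difference between the 2 treatment changes, labelled Cre minus without, was -1.07 (SE 0.12). Labelled Cre minus without Cre was -1.12 in treated and -0.05 in vehicle slices (SE 0.09 each), so that the treated mean labelled Cre was 0.44 of the mean without Cre. Of all 13048 genes tested, those with a mean of at least 1 CPM, 33% had treated and vehicle libraries that did not overlap without Cre, 29.4% did so with the Cre label, and 25.5% and 51.3% were separated by genotype in treated and vehicle slices. By direction, 9.18% of genes stood higher and 23.8% lower in treated slices without Cre, and 9.28% higher and 20.1% lower in treated slices labelled Cre. The libraries labelled Cre stood higher for 13.5% and lower for 12% of genes in treated slices, and higher for 27.8% and lower for 23.4% in vehicle slices. Nothing is read from the separation of Otud1 or Ppp1r10 beside these shares, since these contrasts were used to choose them.

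**Figure D1:**
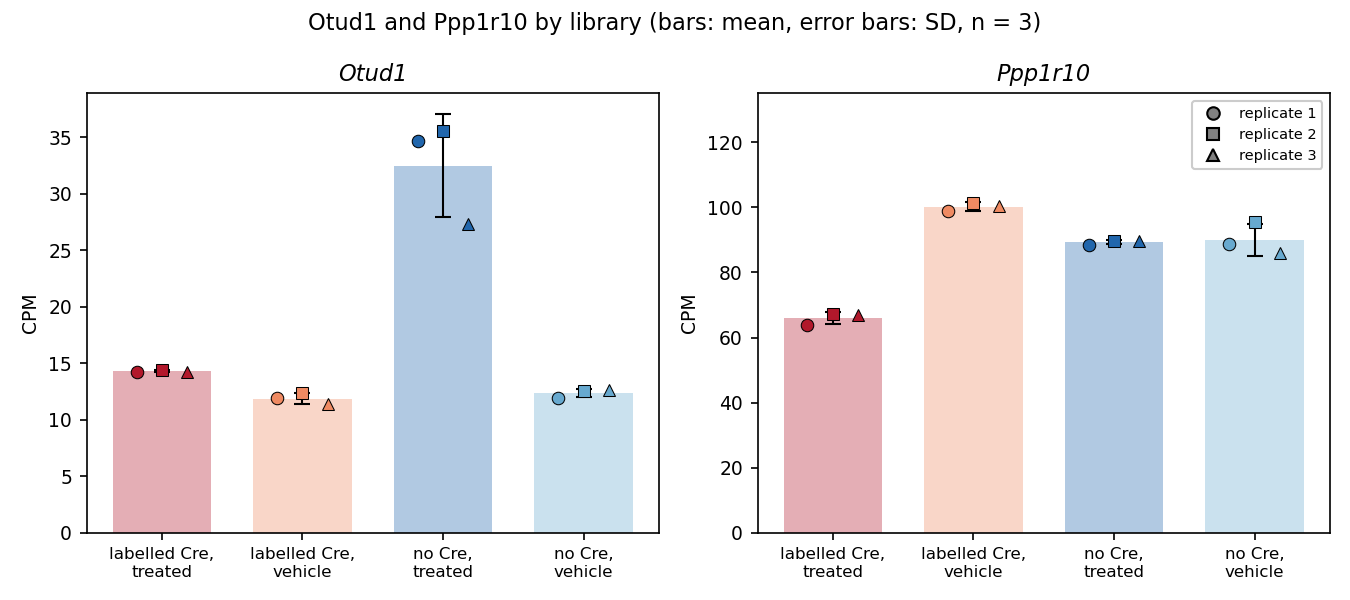
CPM (y axis) of Otud1 and Ppp1r10 in each library, by group (x axis); points are libraries, bars the group mean and error bars the SD (n = 3). Otud1 stands at 27.3 to 35.5 CPM in treated slices without Cre and at most at 14.4 CPM elsewhere, and Ppp1r10 stands at 63.8 to 67.1 CPM in treated slices labelled Cre and at least at 86.0 CPM elsewhere.

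Without replicate 3 of the treated slices without Cre, the Otud1 treatment change in slices without Cre was 1.43, its genotype difference in treated slices -1.24 and the difference of the 2 treatment changes -1.19. Over 12 fits that each left out 1 library, the difference of the treatment changes stayed between -1.19 and -1.001. Libraries with the same replicate number gave treated minus vehicle values of 0.24, 0.21 and 0.30 for slices labelled Cre and 1.46, 1.44 and 1.05 for slices without Cre on the log2 scale. The numbers are not known to pair libraries, and Otud1 was chosen by this contrast. Nothing is therefore read from the order of these values.

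Immediate early genes, among them the AP-1 subunits and Arc, are the best known targets of neuronal activity, and are given beside Otud1. All 20 of a list of 20 rose with treatment in both genotypes, with a median log2 change of 3.66 in slices labelled Cre and 4.13 in slices without Cre. Over all genes the medians were -0.03 and -0.06, and 3.79% and 3.24% of genes rose. In the comparison of treated slices, 9 of the 20 were lower in slices labelled Cre than without and none was higher, where 5.95% of all genes were lower. The count of 9 ranged from 6 to 11 over 24 alternative analyses. Klf4, a zinc finger factor, averaged 21.4 CPM in treated slices labelled Cre and 48.3 CPM in treated slices without Cre, a difference of -1.13 on the log2 scale (SE 0.14, limma adjusted p = 0.000253). Btg2, an antiproliferative early gene, averaged 57.1 and 108.2 CPM in the same groups, and Junb, another AP-1 subunit, averaged 593.5 and 925.0 CPM. In vehicle slices 6 were lower and 1 was higher, where 10.1% and 9.18% of all genes were. The part of this in the Otud1 values was not tested.

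Jun, a subunit of AP-1, was the 1 gene of that list called for the difference of the treatment changes. Jun averaged 179.5 ± 41.7 CPM in treated and 62.2 ± 6.55 CPM in vehicle slices labelled Cre, against 435.9 ± 68.2 CPM in treated and 49.5 ± 3.11 CPM in vehicle slices without Cre (SD, n = 3 each). Treated minus vehicle was 1.496 on the log2 scale with the Cre label and 3.10 without, a difference of -1.61 (SE 0.21). Jun had stood out in earlier results of these data, so its test (limma adjusted p = 0.0197) is no independent support, and the call was lost in 10 of 24 alternatives, with an adjusted p of up to 0.152.

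Ppp1r10 lies on chromosome 17, from 35916434 to 35932283 on the plus strand, with 7 GENCODE transcripts of up to 20 exons, 3 of them coding. The microRNA gene Mir1894 overlaps it on the same strand. The gene starts 45 bp from the start of Mrps18b, a mitochondrial ribosomal protein gene that runs the other way. The Ppp1r10 windows of the RefSeq table lie inside the gene, after the first GENCODE start, so they are not shown. PNUTS is known to direct PP1 to RNA polymerase II and the elongation factor SPT5 at the ends of genes, where the polymerase slows and terminates.

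Ppp1r10 was lowest in treated slices labelled Cre. With the Cre label, treated slices held 63.8, 67.1 and 66.9 CPM, against 98.8, 101.4 and 100.5 CPM in vehicle slices. Without Cre it stood at 88.6, 89.8 and 89.7 CPM in treated and at 88.7, 95.6 and 86.0 CPM in vehicle slices. The 3 treated libraries labelled Cre lie below all the others, and the 3 vehicle libraries labelled Cre lie above all the others. Treated and vehicle libraries without Cre overlap.

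In order, the means of Ppp1r10 were 100.2 ± 1.31 CPM in vehicle slices labelled Cre, 90.1 ± 4.93 CPM in vehicle slices without Cre, 89.4 ± 0.681 CPM in treated slices without Cre and 65.9 ± 1.85 CPM in treated slices labelled Cre (SD, n = 3 each). The 2 middle means do not differ beyond their spread. They rest on 6796 to 14112 reads per library. The spread of Ppp1r10 around its group means was 0.04 on the log2 scale, against a median of 0.11 over all tested genes, and 2.74% of genes had a smaller one. For Otud1 it was 0.11, and 46.9% of genes had a smaller one. These spreads belong to the values by which the 2 genes were chosen, so nothing is read from their rank. The astrocyte markers summed to 9766 to 11783 CPM in treated and 10658 to 11963 CPM in vehicle slices labelled Cre, against 12087 to 12176 CPM in treated and 13314 to 15101 CPM in vehicle slices without Cre. Microglia markers summed to 136 to 172 CPM in treated and 167 to 217 CPM in vehicle slices labelled Cre, against 167 to 190 CPM in treated and 224 to 273 CPM in vehicle slices without Cre. Inhibitory neuron markers summed to 560 to 691 CPM in treated and 541 to 579 CPM in vehicle slices labelled Cre, against 392 to 611 CPM in treated and 432 to 444 CPM in vehicle slices without Cre. Endothelial markers summed to 53.1 to 59.0 CPM in treated and 45.2 to 55.7 CPM in vehicle slices labelled Cre, against 41.6 to 65.2 CPM in treated and 58.9 to 80.8 CPM in vehicle slices without Cre. Of the 6 endothelial markers 5 passed the filter, and their difference of the treatment changes had a median of 0.39 (range 0.32 to 0.52), with none called, while labelled Cre minus without Cre in vehicle slices had a median of -0.40, with 1 called lower. Oligodendrocyte lineage markers summed to 87.2 to 89.0 CPM in treated and 81.0 to 103.7 CPM in vehicle slices labelled Cre, against 64.5 to 99.1 CPM in treated and 80.3 to 94.6 CPM in vehicle slices without Cre, and all 4 groups overlapped. Between genotypes, the vehicle sums did not overlap for inhibitory neuron, astrocyte, microglia and endothelial markers, nor did the treated sums of astrocyte markers. Of all genes, 51.3% were separated in vehicle and 25.5% in treated slices. Single markers in vehicle slices differed by -0.62 to 0.83 for inhibitory neurons and by -0.53 to 0.52 for astrocytes, so they went both ways. The part of these marker differences in the values of Otud1 and Ppp1r10 was not tested.

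Treated minus vehicle was -0.60 for Ppp1r10 in slices labelled Cre (SE 0.05), with the treated mean 0.658 of the vehicle mean. In slices without Cre it was -0.01 (SE 0.05), with a sign that depended on the scaling, from 0.04 to 0.06 with median-ratio scaling, edgeR or DESeq2. The difference between the 2 treatment changes was -0.59 (SE 0.07), between -0.63 and -0.55 over the fits without 1 library. Labelled Cre minus without Cre was -0.43 in treated and 0.15 in vehicle slices (SE 0.05 each), opposite in sign. Same-numbered libraries gave -0.62, -0.59 and -0.58 in slices labelled Cre and 0.00, -0.09 and 0.06 in slices without Cre. As for Otud1, the numbers are not known to pair libraries and the gene was chosen by this contrast, so nothing is read from these values.

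**Figure D2:**
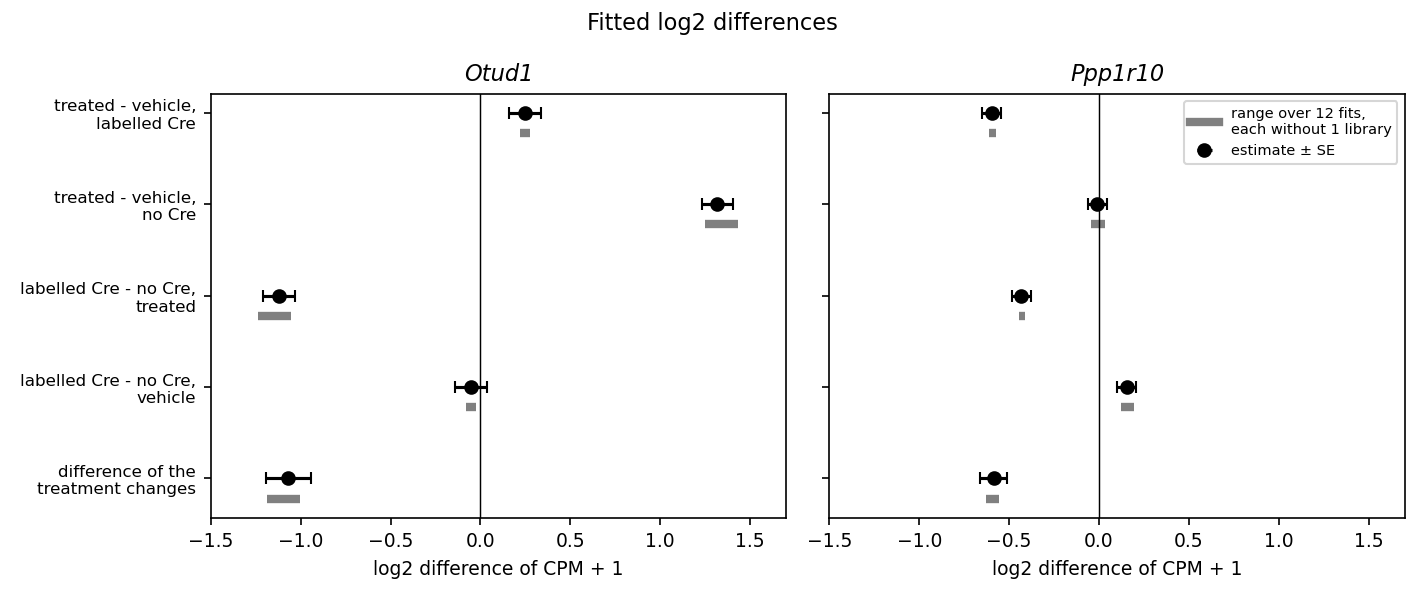
Fitted differences on the log2 scale of CPM + 1 (x axis) for Otud1 and Ppp1r10, with the comparison on the y axis; points are estimates, error bars the SE and grey bars the range over 12 fits that each left out 1 library. The difference of the treatment changes is -1.07 for Otud1 and -0.59 for Ppp1r10, and the grey bars stay on the same side of 0 as the estimate except for the Ppp1r10 change in slices without Cre.

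The known partners of PNUTS were described next. PNUTS forms a complex with TOX4, WDR82 and a catalytic subunit of PP1, and WDR82 also works with ZC3H4, which restrains transcription outside protein-coding genes. Zc3h4 fell with treatment in both genotypes. It averaged 50.1 ± 3.45 CPM in treated and 79.2 ± 1.04 CPM in vehicle slices labelled Cre, with a difference of -0.65 on the log2 scale (SE 0.07, limma adjusted p = 3.69e-05). In slices without Cre it averaged 51.3 ± 3.94 CPM in treated and 74.2 ± 2.57 CPM in vehicle slices (SD, n = 3 each), with a difference of -0.53 on the log2 scale (SE 0.07, limma adjusted p = 0.000208). Both calls held in all 25 alternatives, with a highest adjusted p of 0.000796 in slices labelled Cre and 0.00222 in slices without Cre.

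Wdr82 fell in slices labelled Cre, by 0.35 on the log2 scale (SE 0.10, limma adjusted p = 0.0443), and stood at -0.04 (SE 0.10) in slices without Cre. The difference of its 2 changes was -0.31 and did not pass (limma adjusted p = 0.988). The call sat at the threshold and was lost in 16 of 25 alternatives. These include the fit with replicate as a block inside each genotype (limma adjusted p = 0.068) and the fits without labelled Cre treated replicate 2, any of the 3 labelled Cre vehicle replicates, treated replicate 2 without Cre or any of the 3 vehicle replicates without Cre (limma adjusted p from 0.0552 to 0.133). Tox4, which contributes a DNA-binding subunit, stood at 0.12 in both genotypes and was not called. The PP1 catalytic genes Ppp1ca, Ppp1cb and Ppp1cc stood between 0.01 and 0.07 in slices labelled Cre and between -0.01 and 0.26 in slices without Cre, and none was called.

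Of the 6 partner genes, 2 fell and none rose in slices labelled Cre, and 1 fell and none rose in slices without Cre, where 10.3% and 9.34% of all genes fell. Between genotypes, none of the 6 was called in treated slices, where 13.5% of all genes were called. In vehicle slices Wdr82 and Ppp1cb were higher in slices labelled Cre, by 0.34 and 0.43 (limma adjusted p = 0.0404 and 0.0438), where 9.18% of all genes were higher. Both calls were lost in each of the fits without a vehicle library, of either genotype (limma adjusted p from 0.0665 to 0.153). No partner gene passed for the difference of the treatment changes, where 0.023% of all genes did. So few genes passed that nothing is read from this, here or in the lists that follow.

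Factors that pause, cleave and terminate RNA polymerase II transcripts are the setting in which PNUTS acts. Of 35 such genes, 10 fell and none rose in slices labelled Cre, and 10 fell and none rose in slices without Cre. Over all genes 10.3% fell and 3.79% rose in slices labelled Cre, and 9.34% fell and 3.24% rose in slices without Cre. The list medians were -0.11 and -0.12 on the log2 scale, against -0.03 and -0.06 over all genes. Hexim1 and Mepce, parts of the 7SK complex that holds back the elongation kinase P-TEFb, were among those that fell. Hexim1 changed by -0.51 in slices labelled Cre and by -0.58 in slices without Cre, and Mepce by -0.47 and -0.55. Pcf11, a cleavage and termination factor, changed by -0.63 and -0.41, and Nelfa, a subunit of the pausing factor NELF, by -0.35 and -0.54. None of the 35 passed for the difference of the treatment changes.

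Among 42 other genes of PP1 regulation, 34 passed the filter on low values, and 4 rose and 4 fell in slices labelled Cre and also in slices without Cre. With 10.3% of all genes falling and 3.79% rising in slices labelled Cre, and 9.34% and 3.24% in slices without Cre, the count that fell is near the share of all genes. Ppp1r15a (GADD34) and Ppp1r15b (CReP) encode the subunits that direct PP1 to the translation factor eIF2α. Ppp1r15a rose by 1.19 in slices labelled Cre (SE 0.13, limma adjusted p = 7.56e-05) and by 1.13 in slices without Cre (SE 0.13, limma adjusted p = 0.000104). Ppp1r15b rose by 1.02 and by 1.29. Ppp1r3g, which encodes a glycogen-targeting subunit, rose by 1.11 in both genotypes. Ppp1r26 fell by 0.45 in slices labelled Cre and 0.32 in slices without Cre, and Ppp1r13b, which encodes the p53-binding protein ASPP1, fell by 0.25 and 0.37. None passed for the difference of the treatment changes.

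The other OTU deubiquitinases were described next to Otud1. Of 15 relatives, 14 passed the filter, and none rose with treatment, while 2 fell in slices labelled Cre and 3 in slices without Cre. Among all genes 3.79% and 3.24% rose and 10.3% and 9.34% fell in these comparisons, so counts of this size in 14 genes are near the background. The list median was -0.12 in both genotypes. Vcpip1, which works with the p97 ATPase, averaged 79.0 CPM in treated and 105.3 CPM in vehicle slices labelled Cre, and 74.2 CPM in treated and 96.4 CPM in vehicle slices without Cre. Its log2 change was -0.41 in slices labelled Cre (SE 0.06, limma adjusted p = 0.000512) and -0.38 in slices without Cre (SE 0.06, limma adjusted p = 0.00103). Zranb1, which encodes the deubiquitinase TRABID, was also called lower in both genotypes, at -0.25 and -0.27, but it was lost in 19 and 16 of 25 alternatives. One of these was the replicate block within genotype (limma adjusted p = 0.0864 in slices labelled Cre).

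Without Cre, Yod1, a partner of p97, was lower by 0.62 in treated slices (SE 0.17, limma adjusted p = 0.0337). That call was lost without any of the 3 vehicle replicates without Cre, treated replicate 3 without Cre or labelled Cre vehicle replicate 2 or 3 (limma adjusted p from 0.0501 to 0.111). Between genotypes, Otub2 and Otud7a were higher in slices labelled Cre, in treated slices, where 7.5% of all genes were higher, and in vehicle slices, where 9.18% were. Zranb1 was lower in vehicle slices labelled Cre, with a difference of -0.24 on the log2 scale (limma adjusted p = 0.0421), where 10.1% of all genes were lower, and this call was lost in 13 of 24 alternatives, with an adjusted p of up to 0.132. These include the fits without any 1 of the 6 vehicle libraries, labelled Cre treated replicate 3 or treated replicate 2 without Cre. Otub2 averaged 32.8 CPM in slices labelled Cre and 21.1 CPM in slices without Cre among treated slices, and 36.3 and 20.9 CPM among vehicle slices. Its log2 differences were 0.62 in treated and 0.76 in vehicle slices (SE 0.07 each, limma adjusted p = 0.00014 and 2.58e-05). Otud7a differed by 0.34 in both. No OTU relative passed for the difference of the treatment changes, where 0.023% of all genes did.

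**Figure D3:**
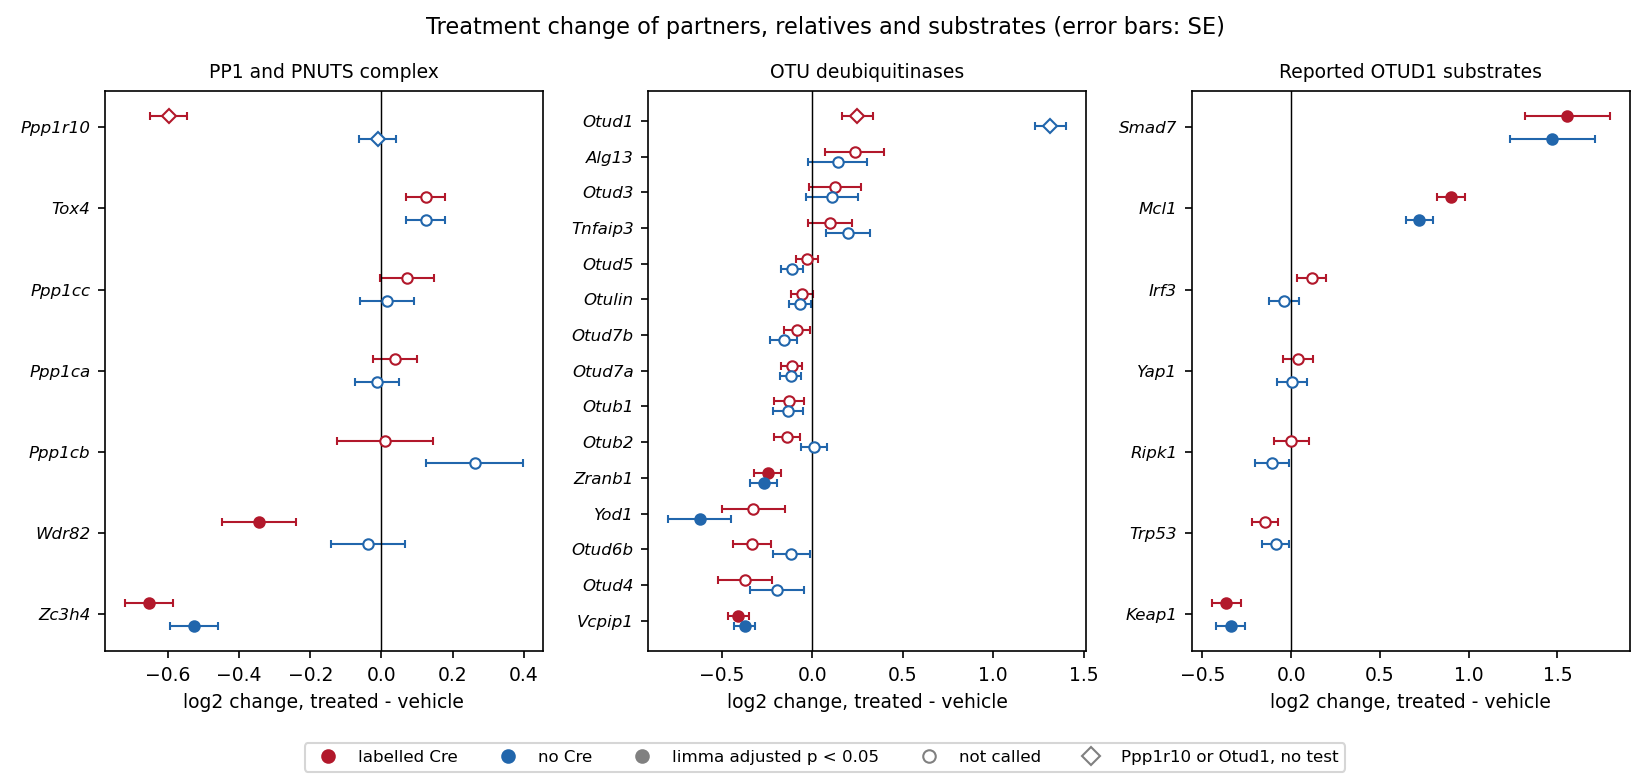
Log2 change, treated minus vehicle (x axis), of PNUTS partners, OTU deubiquitinases and reported OTUD1 substrates (y axis) in slices labelled Cre (red) and without Cre (blue); error bars are SE, filled circles passed limma at an adjusted p of 0.05, open circles did not, and diamonds are Ppp1r10 and Otud1, which were not tested. Zc3h4 and Vcpip1 fell in both genotypes. No OTU relative stands near the 1.32 of Otud1 in slices without Cre, but Otud1 was chosen by these same data and the relatives were not.

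Deubiquitinases of other families included some that rose. Of 68 listed, 63 are in the table and 60 passed the filter, and 3 rose in each genotype, where 3.79% and 3.24% of all genes did. Usp2 rose by 1.13 in slices labelled Cre and 0.89 in slices without Cre, Usp36, a nucleolar enzyme, by 1.06 and 1.05, and Usp38, named after its values were seen to complete the 3, by 0.75 and 0.83. In slices labelled Cre 6 fell and in slices without Cre 4 fell, near the 10.3% and 9.34% of all genes that did. The 9 called in slices labelled Cre became 5 without treated replicate 3 of that genotype. Between genotypes, Usp43 averaged 8.43 CPM in slices labelled Cre and 18.6 CPM in slices without Cre among treated slices, and 10.5 and 21.6 CPM among vehicle slices. Its log2 differences were -1.05 and -0.98 (SE 0.10 each, limma adjusted p = 3.45e-05 and 6.26e-05). Cyld, which encodes a brake on NF-κB signalling, was higher in vehicle slices labelled Cre by 0.41. None of the 60 passed for the difference of the treatment changes.

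Proteins that OTUD1 has been reported to deubiquitinate, mostly in human cell lines, include SMAD7, p53, YAP, IRF3, KEAP1, RIPK1 and MCL1. Their 7 genes all passed the filter, and 2 rose and 1 fell in each genotype, where 3.79% and 3.24% of all genes rose and 10.3% and 9.34% fell. Smad7, the inhibitor of TGF-β signalling, averaged 30.3 ± 11.9 CPM in treated and 9.06 ± 0.377 CPM in vehicle slices labelled Cre, against 19.7 ± 3.65 CPM in treated and 6.47 ± 1.28 CPM in vehicle slices without Cre (SD, n = 3 each). Its log2 change was 1.56 (SE 0.24, limma adjusted p = 0.000781) and 1.47 (SE 0.24, limma adjusted p = 0.00125). Mcl1, an anti-apoptotic BCL2 relative, rose by 0.90 in slices labelled Cre and 0.72 in slices without Cre.

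Keap1, the adaptor that targets NRF2 for degradation, fell by 0.37 in slices labelled Cre and 0.34 in slices without Cre. The Keap1 call without Cre was lost without treated replicate 1 or vehicle replicate 1 or 2 of that genotype (limma adjusted p from 0.0538 to 0.0644) and with median-ratio scaling (limma adjusted p = 0.0859). Trp53, Yap1, Irf3 and Ripk1 were not called in either genotype. None of the 7 passed between genotypes in treated or vehicle slices, or for the difference of the treatment changes. These are RNA levels, and ubiquitin on the proteins was not measured.

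Genes beside Otud1 and Ppp1r10 on their chromosomes did not stand out. Mrps18b, head to head with Ppp1r10, averaged 16.9 ± 0.603 CPM in treated and 16.5 ± 0.811 CPM in vehicle slices labelled Cre, and 14.7 ± 0.148 CPM in treated and 16.2 ± 1.56 CPM in vehicle slices without Cre (SD, n = 3 each). Treated minus vehicle was 0.04 on the log2 scale in slices labelled Cre and -0.13 in slices without Cre (SE 0.07 each), and neither passed. Atat1, Abcf1 and Gnl1, the next tested genes around Ppp1r10, had treatment changes from -0.15 to 0.04, and none was called in any comparison. Around Otud1, Msrb2, Armc3, Etl4 and Arhgap21 start 252028 to 1311129 bp away, and none was called in any comparison.

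The genes whose values ran most like those of Otud1 over the 12 libraries were Sox4, Sowahb, Lrrtm1, Zfp184 and Ephb3. Likeness was the root-mean-square difference of log2(CPM + 1) after each gene's own mean was taken away. It was 0.17 for Sox4, a transcription factor of neural progenitors and young neurons, and 0.21 to 0.23 for the others, where Otud1 itself varied around its mean by 0.56. Sox4 averaged 129.0 CPM in treated and 98.6 CPM in vehicle slices labelled Cre, and 212.9 CPM in treated and 108.4 CPM in vehicle slices without Cre. Lrrtm1, a synaptic adhesion protein gene, averaged 98.8 CPM in treated and 73.9 CPM in vehicle slices labelled Cre, and 154.8 CPM in treated and 69.4 CPM in vehicle slices without Cre. In all 5 the treatment change was larger without Cre, at 0.92 to 1.48, than with the Cre label, at 0.28 to 0.71, as the choice by likeness makes probable, and no test is given.

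For Ppp1r10 the 4 nearest were Creg2, Sv2b, Bcl7a and Sesn1, at 0.08 to 0.11, where Ppp1r10 itself varied by 0.23. Creg2 averaged 54.0 CPM in treated and 79.0 CPM in vehicle slices labelled Cre, and 66.7 CPM in treated and 70.7 CPM in vehicle slices without Cre. Sv2b, a synaptic vesicle protein gene, averaged 209.5 CPM in treated and 292.3 CPM in vehicle slices labelled Cre, and 277.8 CPM in treated and 290.8 CPM in vehicle slices without Cre. Treated minus vehicle for these 4 lay between -0.54 and -0.47 in slices labelled Cre and between -0.19 and -0.07 in slices without Cre. With median-ratio scaling the 5 genes named for Otud1 and the 4 named for Ppp1r10 were again among the 5 nearest.

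**Figure D4:**
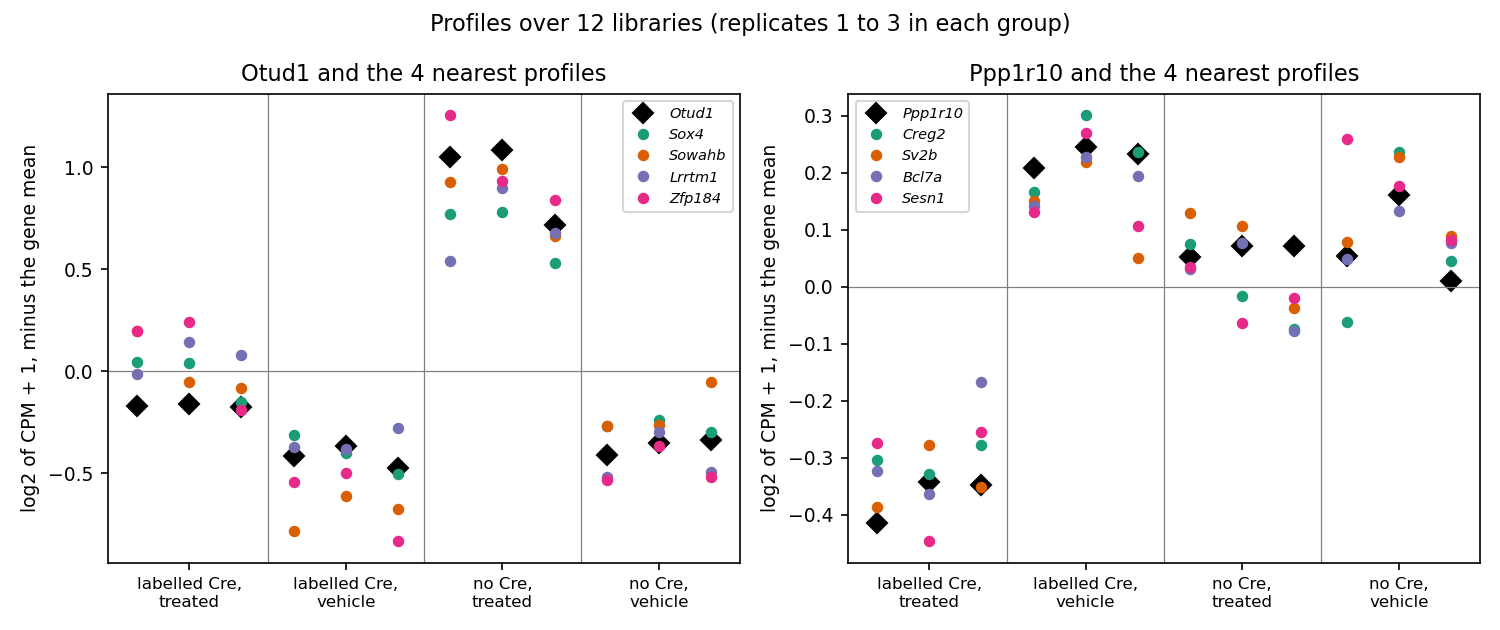
Log2 of CPM + 1 minus the mean of each gene (y axis) in the 12 libraries (x axis, replicates 1 to 3 within each group) for Otud1, Ppp1r10 and the 4 genes nearest to each. The neighbours of Otud1 share its high values in treated slices without Cre, and those of Ppp1r10 share its low values in treated slices labelled Cre.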

How the data were processed

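Per the submitters' processing notes, reads were handled with FastQC, Trimmomatic, STAR and DESeq2 on mm10. For versions, counting tool, annotation and strand use, the sources used here give nothing. The authors deposited CPM values per gene, and every value was a whole number of reads within 0.001 of a read, so reads were recovered for the count-based alternatives. A filter at a mean of 1 CPM kept 13048 of 21967 genes, and log2(CPM + 1) was fitted in limma 3.58.1 (R 4.3.3) over all 12 libraries with 1 mean per group, trended and robust moderation, and Benjamini-Hochberg adjustment over all genes at a threshold of 0.05. A log2 fold change on this scale understates the change of low genes. The fit was tested on simulated data first. Alternatives used edgeR 4.0.16, DESeq2 1.42.0, other pseudocounts, filters and scalings, a replicate block and leaving out each library. Otud1, Ppp1r10 and the gene lists were chosen with earlier results of these data known. Named genes are these 2, Mef2c, Jun, all PNUTS partners and OTUD1 substrates, up to 4 genes of smallest p per comparison among those called in each other list, the 5 nearest patterns per gene (1 of those of Ppp1r10 is not reported here) and the 2 nearest tested genes on each side. No 2 libraries of a group agreed within counting noise. The labels do not say that replicates came from separate animals, so p-values measure the spread between libraries. Same-numbered libraries had correlated deviations of 0.17, 0.14 and 0.48 with the Cre label and 0.06, 0.41 and 0.07 without, and the numbers were not taken as pairs.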

Additional observations from a re-analysis of the deposited data

Results flagged for a closer look

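Otud1, Ppp1r10 and Jun were flagged for the difference between their treatment changes in slices labelled Cre and slices without Cre. The difference, labelled Cre minus without Cre on the log2 scale, was -1.07 for Otud1 and -0.59 for Ppp1r10. These 2 genes were chosen by this contrast, so no test is given for them. For Jun it was -1.61 (limma adjusted p = 0.0197), and it lay between -1.79 and -1.48 over 24 alternatives, of which 10 lost the call.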

How the results depend on the processing

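The difference of the treatment changes kept its sign for Otud1 and Ppp1r10 in all 24 alternatives. With a pseudocount of 5 CPM, Otud1 gave -0.91 for it, -0.95 between genotypes in treated slices and 1.10 for treatment without Cre. Treatment without Cre gave 1.46 with DESeq2, 1.46 with edgeR on DESeq2 size factors and 1.44 with edgeR on TMM for Otud1. For Ppp1r10 those 3 gave 0.054, 0.054 and 0.037, and median-ratio scaling 0.057, with a sign opposite to the reported -0.01. Leaving out 1 library gave, for Otud1, -1.19 to -1.001 for the difference of the treatment changes, -1.24 to -1.05 between genotypes in treated slices and 1.25 to 1.43 for treatment without Cre. It gave 1150 to 2687 genes called between genotypes in treated slices (1755 with all libraries), 1174 to 3247 in vehicle slices (2518), 1046 to 2227 for treatment without Cre (1642) and 0 to 6 for the difference of the treatment changes (3). Fits to only the 6 libraries compared called 614 genes between genotypes in treated and 4982 in vehicle slices. For the difference of the treatment changes, DESeq2 called 42 genes. The limma fit with a replicate block within genotype called 0 genes, with 624 at an unadjusted p under 0.05, and the plain replicate block called 4. The block within genotype was not run for genotype comparisons. The share of rises among called genes was 27.0% with the Cre label and 25.8% without, but 38.1% and 48.7% with median-ratio scaling. Of 2036 values for named genes under alternatives, 152 lost a call and 0 reversed, and the causes were not tested. In the shallowest library 3 reads are 0.0365 CPM, below the level of both genes in every library.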
